A study of Mus musculus with 69 samples.

Results

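Angiotensin II plus norepinephrine (AII + NA), the humoral stressors of the study, were compared with Control in cultured primary endothelial cells (EC) from the murine heart. The comparison holds every set of EC cultures with both libraries present, namely sets 9, 11, 12, 13, 14, 16, 17 and 18. These are 16 of 69 libraries in the series, n = 8 pairs. All EC were labelled WT, came from male C57BL/6 mice and were selected with CD31 beads after CD45-positive cells had been removed. The mouse of set 16, however, is given as EGFR-KOsmc in the labels of the VSMC. Control cells received none of the stressors. AII + NA cells were exposed for 24 h to 30 nM angiotensin II and to 300 nM of a catecholamine, which is norepinephrine in the study's methods and epinephrine in the protocol of the labels. Reference groups from the same sets were HG + FFA, the metabolic stressors (20 mM glucose with free fatty acids, 100 µM in the labels), and ALL, which combines both kinds of stressor, so that 32 EC libraries were fitted together. WT VSMC, smooth muscle cells from the aorta of male WT mice, served as a second reference with 4 sets. Sets 17 and 18 came from the same mouse, which leaves 7 animals for the 8 pairs.

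Angiotensin II acts mainly on the AT1 receptor, which couples through Gq to phospholipase C and calcium and can transactivate the EGF receptor. Norepinephrine acts on alpha-adrenergic receptors of the Gq and Gi type and on beta-adrenergic receptors of the Gs type, which raise cyclic AMP. In the vessel wall both are best known for the contraction of smooth muscle, whereas endothelial cells respond to such agonists by releasing nitric oxide, prostacyclin and endothelin.

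The libraries were first compared with their label. The 16 endothelial markers together reached between 380 and 6230 FPM in the Control libraries (FPM, counts scaled to the normalized library size), with a median of 1200, and between 334 and 6104 FPM with AII + NA, with a median of 1295. Sets 9, 11 and 13 had the lowest endothelial sums. Their level of Pecam1, which encodes the CD31 antigen used for the selection, lay at 23.3, 44.1 and 23.7 FPM in Control, whereas the other five sets had 1177, 1881, 278, 259 and 1119 FPM. Cldn5, a tight junction gene of endothelium, was the only one of the 16 endothelial markers that stayed below 1 FPM in all 16 libraries. Markers of fibroblasts summed to between 894 and 21211 FPM in Control, with the highest sums in sets 11 and 13. In 5 of 8 sets, namely 9, 11, 13, 16 and 17, the fibroblast sum in Control exceeded the endothelial sum, by 3.66 to 51.3 times, and only in sets 12, 14 and 18 was the endothelial sum the larger. Markers of smooth muscle and pericytes summed to between 420 and 4628 FPM. The leukocyte marker Ptprc, which encodes CD45, was below 1 FPM in all 16 libraries. Egfr was at 2.18 FPM in Control and 2.19 FPM with AII + NA in set 16, while the other sets lay between 11.4 and 171 FPM in both groups. The mouse of set 16 is the one that the labels of the VSMC give as EGFR-KOsmc. In bulk RNA, fewer cells of a type and less RNA per cell cannot be told apart. The numbers of DEG in EC are therefore also given without sets 9, 11 and 13, and without sets 9, 11, 13, 16 and 17, which leaves sets 12, 14 and 18. The 16 libraries held between 18670964 and 43240489 counts.

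**Figure D1:**
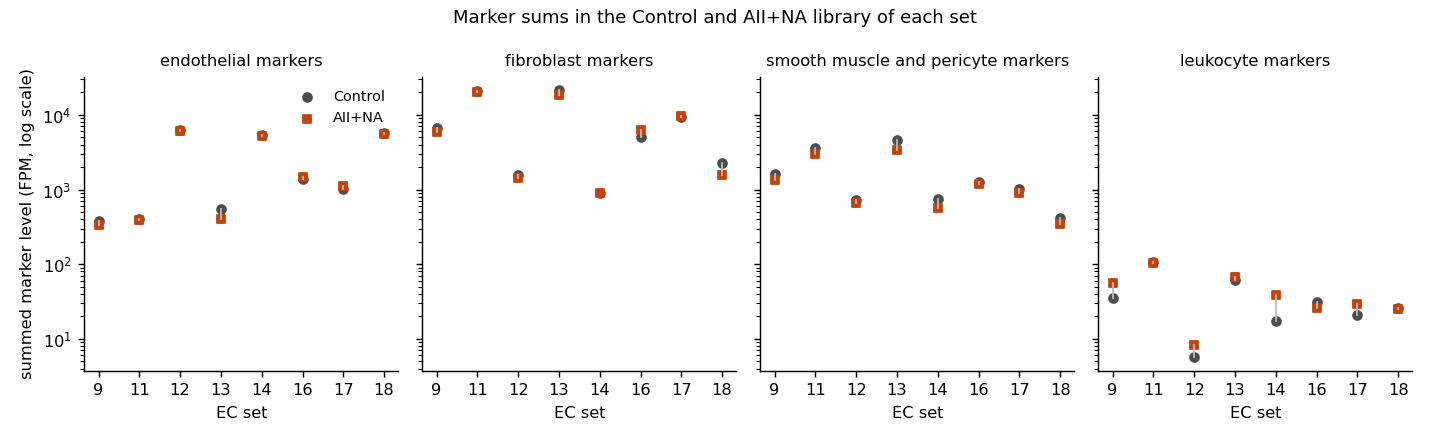
Summed marker level in FPM (log scale) for each EC set, with Control as grey circles, AII + NA as orange squares and a line joining both libraries of a set. Endothelial sums are lowest in sets 9, 11 and 13, and the smooth muscle and pericyte sum is lower with AII + NA in all 8 sets.

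Marker sums differed little between both libraries of a set compared with the differences between sets. The endothelial sum was higher with AII + NA in 2 of 8 sets, with a mean log2 ratio of -0.07 ± 0.17 (SD, n = 8), and the fibroblast sum in 3 of 8 sets, with -0.08 ± 0.25. The smooth muscle and pericyte sum was lower with AII + NA in every set, with log2 ratios between -0.45 and -0.09 and a mean of -0.26 ± 0.12. Of its 9 markers 7 had a log2FC below 0, beside a median of 0.01 for all genes tested, and none reached an unadjusted p under 0.05. The main contributor was Acta2, smooth muscle actin, with 176, 606 and 3740 FPM (lowest, median and highest) in Control and 189, 488 and 2689 FPM with AII + NA. The Acta2 groups overlapped, and its level was lower in 7 of 8 sets (log2FC -0.29 ± 0.17 SE). When the same hormones were added to HG + FFA, the sum of these markers was higher in 3 of 8 sets, with a mean log2 ratio of -0.02 ± 0.27. The leukocyte sum was low and scattered, higher in 5 of 8 sets, with 0.33 ± 0.47. The cardiomyocyte sum, 6.62 to 317 FPM in Control, was higher in 1 of 8 sets, with a mean log2 ratio of -0.28 ± 0.25. The lymphatic endothelial and mesothelial sums were each higher in 6 of 8 sets, with 0.14 ± 0.17 and 0.19 ± 0.26. The Schwann cell sum was higher in 5 of 8 sets, with 0.18 ± 0.45. Among all cell type markers, an unadjusted p under 0.05 was found for Thy1 of fibroblasts (log2FC -0.47 ± 0.19), Lyz2 of leukocytes (0.44 ± 0.17) and Lrrn4 of mesothelium (1.22 ± 0.57).

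The first question was whether AII + NA changed gene expression in EC. No gene was differentially expressed. A DEG was a protein-coding gene or lncRNA with an FDR under 0.05 in edgeR as well as in DESeq2, whose |log2FC| reached 0.64 and whose mean reached 3 FPM in either group. Of 16970 genes tested 0 (0%) met these criteria, and 0 passed the FDR threshold in edgeR's quasi-likelihood test or in DESeq2. The smallest FDR was 0.910 in edgeR. At an unadjusted p under 0.05 edgeR counted 803 genes (4.73%), of which 355 (2.09%) were higher and 448 (2.64%) lower, and DESeq2 counted 939. Without sets 9, 11 and 13 the number of DEG was again 0, with 444 genes at an unadjusted p under 0.05. It was 0 as well without sets 9, 11, 13, 16 and 17, with 335 such genes.

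In the same libraries and the same model, HG + FFA gave 91 DEG (0.536%), 46 higher (0.271%) and 45 lower (0.265%), and 2167 genes (12.8%) at an unadjusted p under 0.05. Without sets 9, 11 and 13 the HG + FFA comparison gave 54 higher and 55 lower DEG, and without sets 9, 11, 13, 16 and 17 it gave 62 higher and 40 lower DEG. Both comparisons use the same Control libraries. The precision of the AII + NA comparison can be read from the intervals of single genes. Among the 11776 such genes that reached 3 FPM in either group, the 95% interval of the log2FC lay wholly between -0.64 and 0.64 for 10710 (90.9%), and wholly between -1 and 1 for 98.1%. The median half-width of these intervals was 0.22, and the median |log2FC| was 0.09 for AII + NA and 0.11 for HG + FFA. A |log2FC| of at least 0.64 was estimated for 43 of these genes with AII + NA and for 210 with HG + FFA. For weakly expressed genes, the receptors among them, the intervals were wider.

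**Figure D2:**
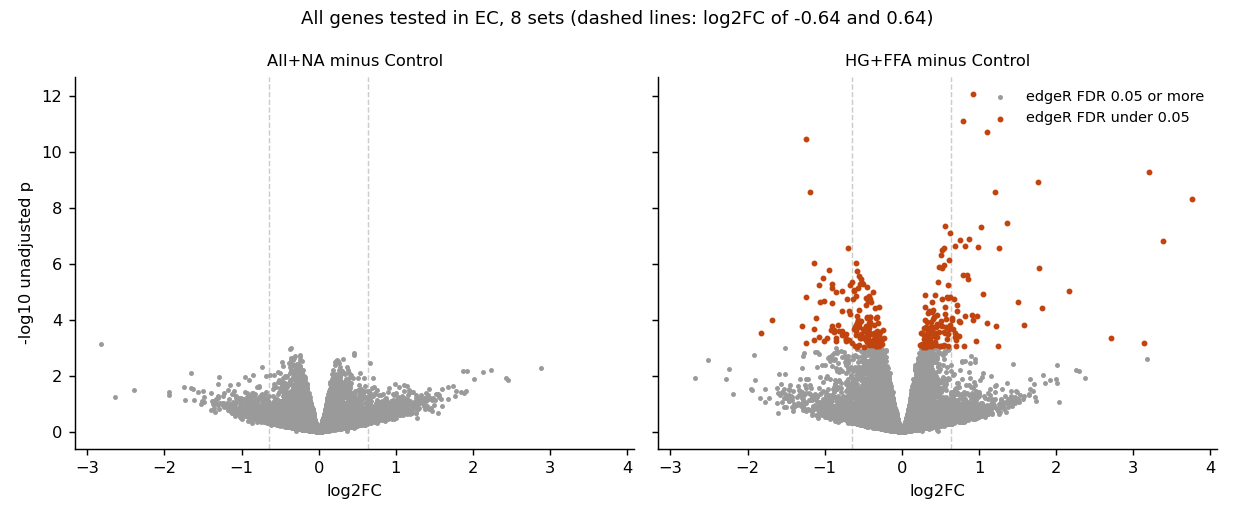
Log2FC against -log10 of the unadjusted p for each of the 16970 genes tested in EC, for AII + NA minus Control (left) and HG + FFA minus Control (right) on the same axes. Orange points have an edgeR FDR under 0.05, which applies to 0 genes on the left and 311 on the right, and dashed lines mark a log2FC of -0.64 and 0.64.

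Changes under AII + NA correlated weakly between sets. Over 12319 genes whose mean reached 3 FPM, the log2 ratios of AII + NA to Control of one set correlated with those of another with a median r of 0.02, and with -0.27 to 0.27 over the 28 pairs of sets. For HG + FFA the same median was 0.12, with -0.11 to 0.39. Within a set the log2 ratios had a standard deviation over genes of 0.24 to 0.62, with a median of 0.37 over the 8 sets, and set 18 had the widest spread. The effect of the hormones without HG + FFA (AII + NA against Control) and with it (ALL against HG + FFA), which have no library in common, were correlated with r = -0.02 over genes. The effect of HG + FFA without the hormones and with them was correlated with r = 0.48. These are correlations across genes, which are not independent replicates.

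The receptors for the added hormones were scarce in EC. Of 13 angiotensin and adrenergic receptor genes, 9 had a Control median under 1 FPM, 7 stayed under 3 FPM in each of the 16 libraries, and 8 passed edgeR's filter. A floor of 3 counts corresponded to 0.0717 to 0.176 FPM per library. Agtr1a, the main AT1 receptor gene of the mouse, had 0, 0.159 and 3.38 FPM (lowest, median and highest) in Control and 0, 0.0356 and 3.23 FPM with AII + NA. Only set 13 exceeded 3 FPM, in both libraries, and set 13 was among those with few endothelial markers. Agtr1b, the second AT1 receptor gene, had at most 1.06 FPM and a median of 0.0415 FPM in Control. Agtr2, the AT2 receptor, had 31 counts over all 16 libraries and 0 counts in 11 of them.

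Among the adrenergic receptors, Adra1d and Adra1b had means that reached 3 FPM. Adra1d, a Gq-coupled alpha1 receptor on chromosome 2 (GRCm39, 131385993 to 131404693), had 0.53, 9.90 and 42.8 FPM in Control and 0.748, 6.67 and 27.6 FPM with AII + NA. Its groups overlapped, its level was lower with AII + NA in 6 of 8 sets, and the estimate of -0.64 ± 0.32 (log2FC, SE) had an unadjusted edgeR p of 0.0532 and an FDR of 0.910. The smooth muscle and pericyte marker sum was lower in the same comparison, and its part in the Adra1d value was not tested. Adra1b, another alpha1 receptor, had Control levels of 0.789, 3.48 and 6.81 FPM and AII + NA levels of 0.191, 2.64 and 5.74 FPM, and was lower in 7 of 8 sets (log2FC -0.50 ± 0.30 SE). Per length of exons, the Control medians of Adra1d and Adra1b were 2.38 and 1.03 FPM per kb, and their ranges over the sets overlapped. Of the 8 receptors tested 7 had a log2FC below 0, and 0 had an unadjusted p under 0.05. The median log2FC of all genes tested was 0.01, and with such low receptor levels these signs are a description only.

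**Figure D3:**
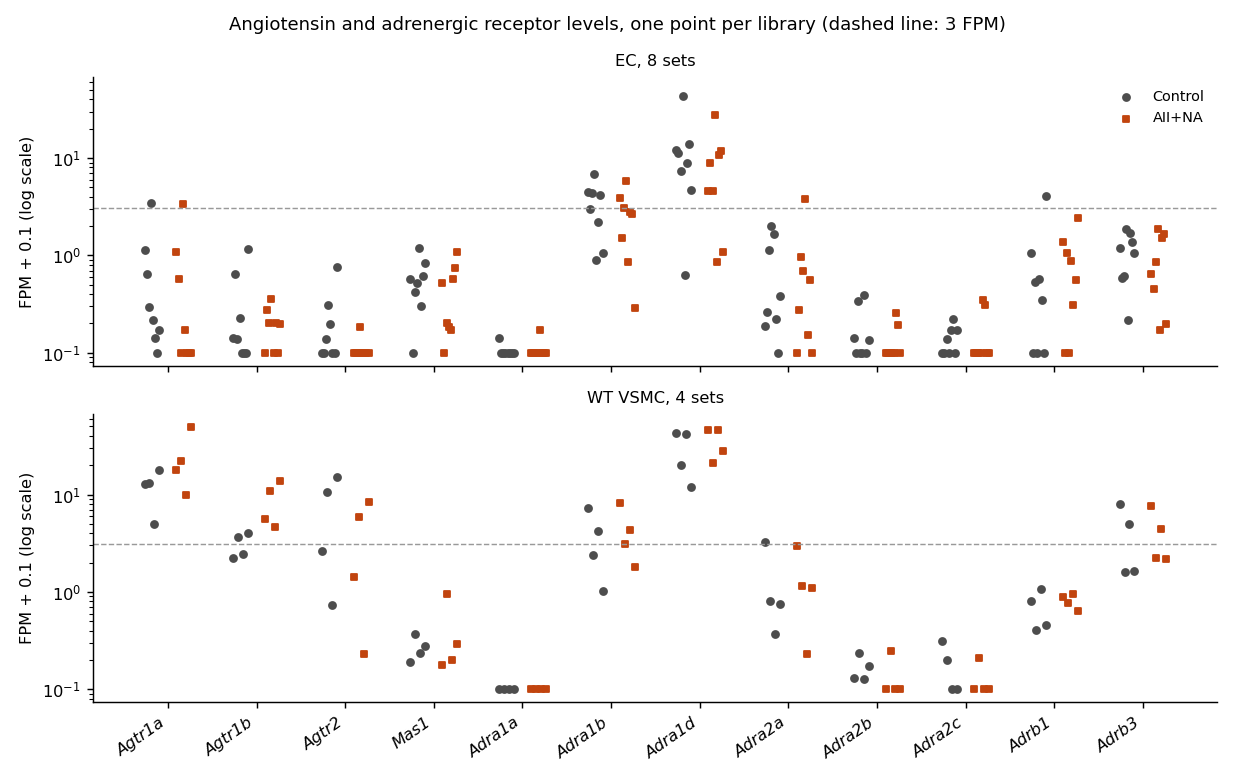
Level of angiotensin and adrenergic receptor genes as FPM + 0.1 (log scale), one point per library, in EC (top) and WT VSMC (bottom), with Control in grey and AII + NA in orange. In EC, Adra1d and Adra1b reach the dashed line at 3 FPM in several libraries, and Agtr1a reaches it in the 2 libraries of set 13, whereas all 8 WT VSMC libraries shown lie above it for Agtr1a.

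Genes of the pathways below the receptors were then examined as 22 lists with 417 distinct genes, of which 378 were tested. None was a DEG. In all, 6 had an unadjusted p under 0.05 and a higher level, 12 had such a p and a lower level, together 4.76% of the members against 4.73% of all genes. The medians of the lists lay between -0.20 and 0.09 on the log2 scale, beside 0.01 for all genes tested. For 298 of the 378 members tested the 95% interval lay within -0.64 and 0.64, beside 11244 of all 16970 genes tested (66.3%). Most of these p-values did not stay under 0.05 with each set left out, in fits that rest on fewer pairs. With 1 set left out, the log2FC of Icam2, Enpep and Nqo1 shrank by up to 2.27, 1.72 and 1.65 times. The other members shrank by at most 1.47 times, the value of Pde4b. Of the 18 members with an unadjusted p under 0.05, 2 (Pde4b and Aldoa) kept such a p with each set left out in turn, 4 (Enpep, Prkce, Icam2 and Aldoa) without sets 9, 11 and 13, and 0 without sets 9, 11, 13, 16 and 17.

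The signalling machinery itself was well expressed. Of 27 genes for G proteins and phospholipase C signalling, 25 were tested. An interval within -0.64 and 0.64 was found for 24 of them, beside 66.3% of all genes tested. Gnaq, the alpha subunit of Gq, had 92.8, 158 and 306 FPM in Control and 105, 155 and 339 FPM with AII + NA (log2FC 0.11 ± 0.07 SE). Gnai2, a Gi alpha subunit, had Control levels of 450, 779 and 956 FPM and AII + NA levels of 484, 711 and 837 FPM (log2FC -0.08 ± 0.07). Both groups of values overlapped widely. Prkce, a protein kinase C, was the member with an unadjusted p under 0.05 (0.0200) and was higher in 7 of 8 sets, by a log2FC of 0.15 ± 0.06. Maoa, an enzyme that degrades catecholamines, had a Control median of 124 FPM and a log2FC of -0.02 ± 0.12. In the list for the angiotensin system 13 of 16 genes were tested, and 3 had an unadjusted p under 0.05, each with a lower level. These were the aminopeptidases Enpep and Anpep, which cleave angiotensin peptides, and the protease Ctsd. The log2FC of Enpep was -1.13, and without set 18 it was -0.65 with an unadjusted p of 0.130. Ctsd, the most abundant, had 679, 1010 and 2246 FPM in Control and 490, 916 and 1801 FPM with AII + NA (log2FC -0.19 ± 0.08), and without sets 9, 11 and 13 its log2FC was -0.10.

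Of 19 immediate early genes tested, Jund was the one with an unadjusted p under 0.05, and 12 of 19 had a log2FC below 0. Their median log2FC was -0.10, beside 0.01 for all genes tested. Egr1, an early target of the ERK pathway, had 27.7, 53.0 and 231 FPM in Control and 22.7, 34.4 and 242 FPM with AII + NA, was higher in 4 of 8 sets and had a log2FC of -0.20 ± 0.16. Jund, a member of the AP-1 family, was lower in 6 of 8 sets (log2FC -0.38 ± 0.19, and -0.20 without sets 9, 11 and 13), but 52.6% of its exon sequence overlaps another gene, so that its counts are uncertain. Among 16 cyclic AMP and CREB target genes, Pde4b, a phosphodiesterase that degrades cyclic AMP, was higher in all 8 sets, with 17.6, 67.0 and 278 FPM in Control and 20.8, 71.1 and 315 FPM with AII + NA. The Pde4b groups overlapped because the sets differed in level, the log2FC was 0.25 ± 0.09, and the unadjusted p of 0.0105 corresponded to an FDR of 0.910. The Pde4b log2FC was 0.12 without sets 9, 11 and 13 (unadjusted p 0.163). Dusp1, a phosphatase induced through CREB, had Control levels of 19.6, 40.8 and 85.6 FPM and AII + NA levels of 26.7, 46.8 and 71.7 FPM (log2FC 0.03 ± 0.12). The 16 ERK feedback genes held 0 members with an unadjusted p under 0.05, as did the 11 calcineurin and NFAT genes and the 12 tested regulators of G protein signalling.

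In the list for the EGFR family and transactivation, 11 of 12 tested genes had an interval within -0.64 and 0.64, beside 66.3% of all genes tested. Egfr had 2.18, 40.8 and 146 FPM in Control and 2.19, 42.8 and 171 FPM with AII + NA, was higher in 4 of 8 sets and had a log2FC of 0.14 ± 0.10. The protease genes Adam10 and Adam17, which release EGFR ligands, had log2FC of 0.06 ± 0.07 and 0.09 ± 0.07. Rhbdf1, an inactive rhomboid protein that regulates Adam17, was the member with an unadjusted p under 0.05 and was lower in 6 of 8 sets (log2FC -0.19 ± 0.09, and -0.10 without sets 9, 11 and 13).

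Endothelial functions were covered by lists for vasoactive, coagulation, adhesion and angiogenesis genes. Of 21 vasoactive genes tested, Ddah2, which degrades an inhibitor of nitric oxide synthase, had an unadjusted p under 0.05 (0.0181). It had 82.9, 107 and 172 FPM in Control and 65.1, 97.2 and 115 FPM with AII + NA, and was lower in 6 of 8 sets (log2FC -0.27 ± 0.11). Ece1, the endothelin-converting enzyme, had a log2FC of 0.00 ± 0.11, and Ptgis, prostacyclin synthase, one of -0.12 ± 0.09. Vcam1, a leukocyte adhesion molecule, had 512, 862 and 1829 FPM in Control and 557, 784 and 2029 FPM with AII + NA (log2FC 0.09 ± 0.11). Icam2, another adhesion molecule, had an unadjusted p under 0.05 with a log2FC of -0.43 ± 0.20 and was lower in 7 of 8 sets. Without set 17 the log2FC of Icam2 was -0.19, with an unadjusted p of 0.278. Of the 15 coagulation genes and the 21 angiogenesis genes tested, 0 had such a p.

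Of 19 NADPH oxidase and antioxidant genes tested, 3 had an unadjusted p under 0.05. Nox4, an NADPH oxidase, was higher in 7 of 8 sets, with 9.03, 17.4 and 33.8 FPM in Control and 10.4, 21.4 and 30.8 FPM with AII + NA (log2FC 0.22 ± 0.10). Its partner Cyba was lower in 7 of 8 sets (log2FC -0.20 ± 0.10), and Nqo1, an antioxidant enzyme, had a log2FC of 0.36 ± 0.16. Without set 9 the log2FC of Nqo1 was 0.22, with an unadjusted p of 0.151. Without sets 9, 11 and 13 the log2FC was 0.12 for Nox4, -0.13 for Cyba and 0.22 for Nqo1, each with an unadjusted p above 0.05. The 3 members with an unadjusted p under 0.05 among 22 hypoxia and glycolysis genes were the glycolytic enzymes Aldoa, Pfkl and Pkm, each with a lower level. Aldoa, aldolase A, was lower in all 8 sets, with 448, 691 and 997 FPM in Control and 307, 651 and 823 FPM with AII + NA, and a log2FC of -0.24 ± 0.08 (unadjusted p 0.00455, FDR 0.910). Between 39.8% and 43.8% of the exon sequence of these 3 genes overlaps other genes. The log2FC without sets 9, 11 and 13 was -0.17 for Aldoa, -0.10 for Pfkl and -0.13 for Pkm. When the hormones were added to HG + FFA, the log2FC of Aldoa was -0.04 ± 0.08. Of 22 SRF, MRTF and YAP target genes, Myl9, a myosin light chain, was the member with an unadjusted p under 0.05. It had 8.28, 46.9 and 348 FPM in Control and 4.69, 32.1 and 292 FPM with AII + NA and was lower in all 8 sets (log2FC -0.43 ± 0.20), in the comparison in which the smooth muscle and pericyte marker sum was lower as well. Their relation was not tested. Lists for mitosis, S phase, mitochondrial coupling, and PPAR and fatty acid responsive genes held 0 members with an unadjusted p under 0.05. Tgfbr1, a TGF-beta receptor, was the member with such a p among 22 fibrosis and mesenchymal transition genes (log2FC 0.18 ± 0.08, and 0.08 without sets 9, 11 and 13), and Nr3c1, the glucocorticoid receptor, among 8 glucocorticoid and mineralocorticoid responsive genes tested (log2FC 0.15 ± 0.07).

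The genes with the smallest unadjusted p were taken as the 10 higher and 10 lower protein-coding or lncRNA genes that had at least 3 FPM and the same direction in at least 7 of 8 sets. These genes were picked by their p, so that their values are a description, and all had an FDR of 0.910. Their |log2FC| lay between 0.21 and 0.45. Adgrg2, an orphan adhesion G protein-coupled receptor on chromosome X (159173469 to 159281075), led the higher genes. It had 2.34, 9.08 and 15.3 FPM in Control and 3.42, 12.4 and 24.0 FPM with AII + NA, was higher in all 8 sets and had a log2FC of 0.45 ± 0.13 (unadjusted p 0.00152). Tbc1d4, a Rab GTPase-activating protein of insulin-stimulated glucose transport, had 2.54, 9.79 and 14.03 FPM in Control and 4.11, 11.97 and 19.1 FPM with AII + NA and was higher in 7 of 8 sets (log2FC 0.45 ± 0.13). The ubiquitin ligase Trim25, the transcriptional regulators Zbtb38, Sertad2 and Epc1, and Tbck, Tmtc3, Rprd2 and Utp15 followed with log2FC of 0.21 to 0.31.

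Among the lower genes, Cisd3, which encodes a mitochondrial iron-sulfur protein (chromosome 11, 97576621 to 97582423), had 7.57, 10.7 and 22.8 FPM in Control and 5.79, 8.54 and 19.5 FPM with AII + NA. It was lower in all 8 sets, with a log2FC of -0.37 ± 0.10 (unadjusted p 0.00106). Rpl13a, a protein of the large ribosomal subunit, had 15.1, 31.7 and 42.7 FPM in Control and 9.01, 26.4 and 36.9 FPM with AII + NA, and was also lower in all 8 sets (log2FC -0.35 ± 0.10). Near-identical copies of Rpl13a exist in the genome, and its counts are therefore uncertain. Brk1, a subunit of the WAVE actin regulator, had 76.1, 121 and 237 FPM in Control and 70.9, 97.7 and 196 FPM with AII + NA (log2FC -0.24 ± 0.07). The deacetylase Sirt6, the prohibitin Phb2, the sterol isomerase Ebp, and Sugp1, Nabp2, Zfand2b and Vcf1 completed this group with log2FC of -0.37 to -0.22. Of the exon sequence of Vcf1, 83.8% overlaps another gene, and for Cisd3 it is 45.2%. When the hormones were added to HG + FFA, 10 of the 20 had the same sign as with AII + NA alone, with a median |log2FC| of 0.05.

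**Figure D4:**
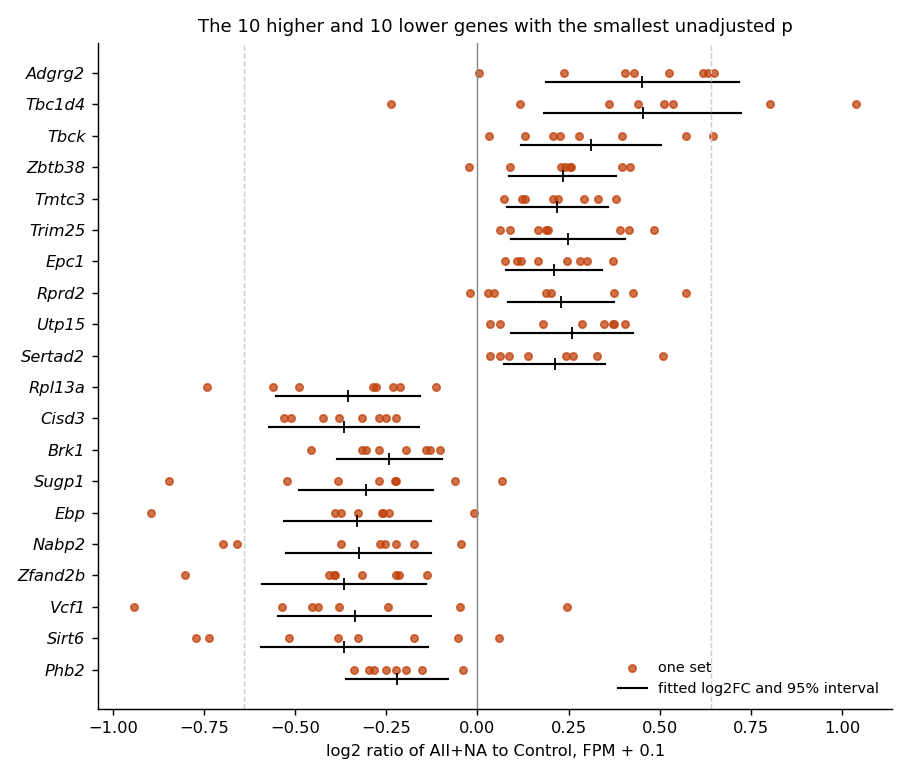
Log2 ratio of AII + NA to Control (FPM + 0.1) in each of the 8 sets (orange points) for the 10 higher and 10 lower genes with the smallest unadjusted p, with the fitted log2FC and its 95% interval in black. Nearly all points of a gene lie on one side of 0, and the fitted values lie between the dashed lines at -0.64 and 0.64.

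Higher and lower genes differed in length. The 292 higher genes with an unadjusted p under 0.05 and at least 3 FPM had a median exon length of 9250 bases, the 398 lower ones of 4002 bases, and all 11776 genes of 6578 bases. Across these 11776 genes the log2FC correlated with exon length with a Spearman rho of 0.33. In single sets rho was between -0.05 in set 17 and 0.42 in set 16, and it was above 0.2 in sets 11, 12, 13 and 16. When the hormones were added to HG + FFA, rho was -0.22. For HG + FFA against the same Control libraries it was 0.22, with 0.28, 0.21 and 0.24 in sets 12, 13 and 16 and values between -0.12 and 0.11 in the others. The part of exon length in the differences of single genes was not tested.

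A second question was whether the hormones acted alike with and without the metabolic stressors. The average of both hormone effects gave 0 DEG (0%) and 0 genes with an FDR under 0.05 in edgeR or DESeq2, with 582 genes (3.43%) at an unadjusted p under 0.05 in edgeR and 745 in DESeq2. The difference between both effects gave 0 DEG (0%) as well, with 757 genes (4.46%) in edgeR and 920 in DESeq2. Both counts of DEG were again 0 without sets 9, 11 and 13. They were 0 without sets 9, 11, 13, 16 and 17 as well, where edgeR had 0 genes with an FDR under 0.05 for either, and DESeq2 had 3 for the average and 44 for the difference. In the average, Tbck, Tbc1d4, Nsf, Me1 and the interferon-inducible gene Ifi205 were the higher genes with the smallest p, with log2FC of 0.14 to 0.48. Ifi205 had the largest of these, 0.48 ± 0.15, with 0.53 for AII + NA against Control and 0.42 for ALL against HG + FFA. The lower genes were Sugp1, Atp6v0b, Tmem11, Pacc1 and Ppie, each with a log2FC of -0.22 in the average. All had an FDR of 0.995 in edgeR.

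The direct comparison of both kinds of stressor in EC gave 65 DEG (0.383%), 30 higher (0.177%) and 35 lower (0.206%) with AII + NA than with HG + FFA. Of the 91 genes called for HG + FFA 48 were among them. In the direction of their HG + FFA change, these 91 genes had a median log2FC of 0.16 with AII + NA, against a median |log2FC| of 0.89 with HG + FFA, and 5 of 91 had an unadjusted p under 0.05 with AII + NA. The called genes and their HG + FFA values come from the same Control libraries and are given side by side only. Fitting the sets without the pairing left 1 DEG, and using the animal as the block left 28. Without sets 9, 11 and 13 there were 74 DEG, and without sets 9, 11, 13, 16 and 17 there were 70.

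Genes of fatty acid handling made up the clearest group, with 8 of 19 tested PPAR and fatty acid responsive genes lower with AII + NA than with HG + FFA. Angptl4, an inhibitor of lipoprotein lipase and a PPAR target, had 4.16, 17.6 and 460 FPM in Control, 4.52, 20.8 and 487 FPM with AII + NA and 138, 241 and 791 FPM with HG + FFA. Its difference between both stressors was a log2FC of -3.33 ± 0.36 (edgeR FDR 9.69e-07). Cpt1a, the carnitine palmitoyltransferase that admits fatty acids to the mitochondrion, had 137, 200 and 229 FPM in Control, 151, 208 and 238 FPM with AII + NA and 301, 307 and 402 FPM with HG + FFA. For Cpt1a the HG + FFA values lay above all values of both other groups. Pdk4, which restrains the oxidation of pyruvate, and Plin2, a coat protein of lipid droplets, differed by -1.18 ± 0.14 and -0.93 ± 0.15. With AII + NA against Control their log2FC were 0.02 ± 0.14 and 0.05 ± 0.14. Genes higher with AII + NA than with HG + FFA included Mylip, a ubiquitin ligase for the LDL receptor, with 34.0, 57.1 and 130 FPM in Control, 27.3, 56.1 and 125 FPM with AII + NA and 11.4, 26.0 and 50.9 FPM with HG + FFA (difference 1.19 ± 0.12, FDR 4.62e-07). Ace, which forms angiotensin II, differed by 0.76 ± 0.19 (FDR 0.0379), and Egr1 by 0.66 ± 0.16 (FDR 0.0316). With AII + NA against Control, Ace and Egr1 were not higher, with log2FC of -0.31 and -0.20 and no unadjusted edgeR p under 0.05.

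The same hormones were compared in WT VSMC, where they gave 7 DEG (0.0414%), all higher, with n = 4. These were Agtr1b, Ramp1, Rgs3, Itga8, Mylk, Hdac9 and Bmp3. Since the 7 genes were chosen by their change in WT VSMC, their VSMC values are a description. Rgs3, a regulator that ends signals of Gq and Gi, had 50.7, 49.4, 51.5 and 45.1 FPM in Control of VSMC sets 1 to 4 and 83.8, 100.3, 70.3 and 98.5 FPM with AII + NA, without overlap. In EC Rgs3 had 36.1, 128 and 295 FPM in Control and 24.5, 118 and 288 FPM with AII + NA, was lower in 7 of 8 sets and had a log2FC of -0.12 with a 95% interval of -0.31 to 0.08. Itga8, the integrin alpha8 chain, had Control levels of 4.69, 36.0 and 77.4 FPM in EC and AII + NA levels of 4.17, 42.5 and 104 FPM, with a log2FC of 0.09 and an interval of -0.27 to 0.44. Mylk, myosin light chain kinase, had a log2FC of -0.01 in EC, with an interval of -0.34 to 0.32, and the histone deacetylase Hdac9 one of 0.06, with an interval of -0.44 to 0.55. Ramp1, part of the receptor for calcitonin gene-related peptide, and the growth factor Bmp3 had Control medians of 0.427 and 1.17 FPM in EC, and their intervals reached from -1.56 to 1.64 and from -1.59 to 0.51. Agtr1b did not pass the filter in EC. Agtr1a had 4.86 to 17.7 FPM in the Control libraries of WT VSMC, each of which exceeded every EC library of this comparison.

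**Figure D5:**
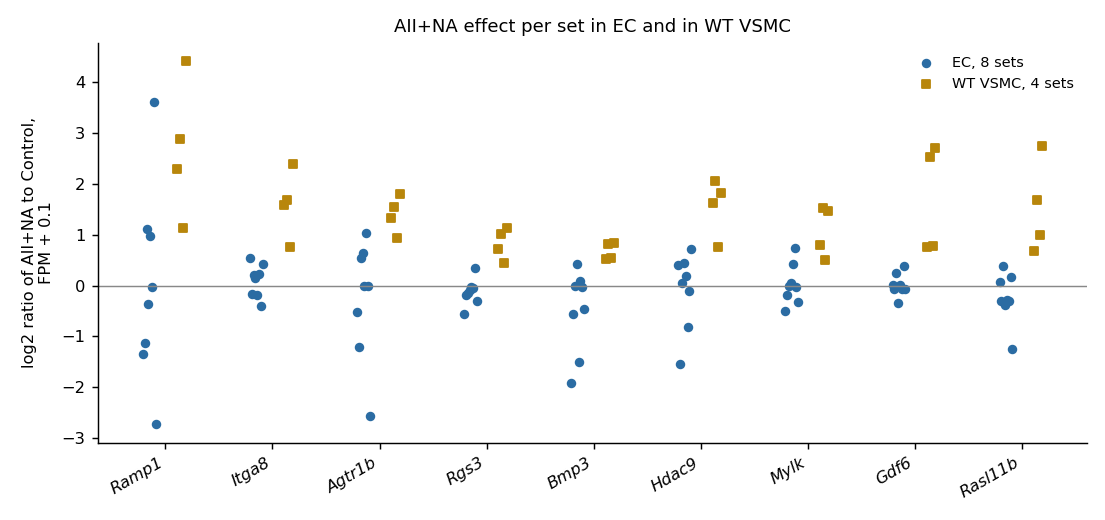
Log2 ratio of AII + NA to Control (FPM + 0.1) in each EC set (blue circles) and each WT VSMC set (brown squares) for the 7 genes called in WT VSMC and for Gdf6 and Rasl11b. All WT VSMC points lie above 0, whereas the EC points lie on both sides of 0 for each gene.

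The difference between the AII + NA effect in EC and that in WT VSMC was tested over 19319 genes in a joint model. It passed all criteria for 3 genes (0.0155%), each with a lower effect in EC. Gdf6, a growth factor of the BMP family (chromosome 4, 9844350 to 9862354), had 86.1, 188 and 480 FPM in Control and 86.6, 207 and 458 FPM with AII + NA in EC, and 41.9, 19.7, 27.6 and 27.9 FPM in Control and 70.7, 113, 47.3 and 183 FPM with AII + NA in WT VSMC. The EC groups overlapped fully and the VSMC groups did not overlap, and the difference of both effects was -1.69 ± 0.29 (log2FC, SE, edgeR FDR 0.0228). Rasl11b, a Ras-like GTPase, differed by -1.77 ± 0.33 (FDR 0.0316), with a log2FC of -0.21 in EC and 1.53 in WT VSMC. Rgs3 differed by -0.96 ± 0.17 (FDR 0.0228). The number of such genes depended on single sets. It was 0 without sets 9, 11 and 13 together, without sets 9, 11, 13, 16 and 17 together, and without EC set 13 or 14 or VSMC set 2 or 4, it was 1 without EC set 11, and it rose to 10 and 15 without VSMC set 1 and 3. All EC libraries belong to batch B2 and all VSMC libraries to batch B1, so that cell type and batch cannot be told apart. The mouse of EC set 9 also gave VSMC set 1.

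Finally, the biomarker genes of the study were examined by its directed approach, in which the expression with AII + NA is divided by that of Control of the same set and the 99% confidence interval of the mean ratio is calculated. The study counts a gene as affected where this interval excludes 1. In all, 105 genes could be evaluated, and 4 (3.81%) met this criterion, each with a lower level under AII + NA. No share over all genes by the same ratio is given here, so that the count is a description of the list. In the edgeR fit Myl9 had an unadjusted p under 0.05, whereas Acta2 and Irf1 did not. Myl9 had a mean ratio of 0.746 with an interval of 0.629 to 0.863, Acta2, which is also one of the smooth muscle and pericyte markers, one of 0.824 with 0.663 to 0.986, and Irf1, an interferon regulatory factor, one of 0.879 with 0.783 to 0.975. The fourth was Agtr2, with a mean ratio of 0.101, which rests on the 4 sets with any Agtr2 count in Control and on levels of at most 0.669 FPM. The interval excluded 1 for 2 to 5 genes with each set left out, for 7 without sets 9, 11 and 13, among them Agtr2, Myl9 and Irf1, and for 3 without sets 9, 11, 13, 16 and 17, which were Agtr2, Mylip and Col8a1. A further limit, a |log2| of the mean ratio of at least 0.64, was added here and is not part of the study's approach. It was missed by 98 of the 105 genes, Myl9, Acta2 and Irf1 among them, and Agtr2 met both limits. Agtr2 no longer met both without set 12, 14 or 18. Without set 13 its 3 remaining ratios were all 0. A mean ratio of 0 has no finite log2, and Agtr2 was not counted as meeting both there. The same 3 ratios of 0 stand behind Agtr2 in the counts without sets 9, 11 and 13 and without sets 9, 11, 13, 16 and 17, so that its interval there has no width. Apart from Agtr2, which was not counted in these settings either, the only gene to meet both without sets 9, 11 and 13 was Bglap. Its mean was 0.124 FPM in Control over all 8 sets. Without sets 9, 11, 13, 16 and 17, and again apart from Agtr2, 0 genes met both.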

How the data were processed

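Poly(A) RNA-Seq was measured in cultured EC and VSMC. The authors aligned the reads with HISAT2 2.1.0 to mm39, assigned them to exons with featureCounts (multi-mapping reads included, strand setting not given in the sources used here) and deposited the raw count of reads per gene. Every value starts from these deposited counts. Symbols, positions and exon overlaps came from GENCODE for GRCm39, which holds 56310 of 56953 identifiers, and 0.0241% of the counts lay outside it.

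R 4.3.3 with edgeR 4.0.16 (TMM, filterByExpr, quasi-likelihood test) and DESeq2 1.42.0 was used, with condition and set number as terms over the 32 EC libraries of the 8 sets, and Benjamini-Hochberg adjustment over all genes tested. FPM were calculated from the normalized library sizes, and 0.1 FPM was added before single values were put on the log2 scale. Python with matplotlib 3.10.9 drew the figures. Log2FC are given with their SE, and FPM as lowest, median and highest. The depth was 18670964 to 43240489 counts per library, and floors cover counting error only. The sets pair the libraries, since each set is from 1 animal, and the deviations from the group means correlated between both libraries of a set with r of 0.70 to 0.95. No libraries were duplicates (smallest chi-square per gene 6.50). Cultures of sets 17 and 18 share a mouse.

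Named genes were the 10 higher and 10 lower genes with the smallest p, the 5 and 5 of the average effect, genes called in WT VSMC, all receptors, list members with an unadjusted p under 0.05 or among the 4 most expressed of a list, markers, and the 3 genes with the largest fold for HG + FFA in each direction. Pdk4, Plin2, Irf1, Bglap, Gdf6 and Rasl11b were named after their values were seen. The members and lists were chosen with earlier results of these data known. The models were tested on simulated data. Alternatives were edgeR or DESeq2 alone, other size factors, filters and thresholds, no block, the animal as block, other libraries in the fit, and each set left out. Set 10, without Control, and set 15, without AII + NA, entered only the alternative fit with all EC libraries. Some genes that the rule names are not reported here.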

Additional observations from a re-analysis of the deposited data

Results flagged for a closer look

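The AII + NA to Control log2 ratios of 140 named genes were searched for a set far from the other 7 by Dixon's criterion, which flags about 1 in 20 groups by chance. A single set stood apart for 15 genes. Set 9 was the lowest for Ebp (-0.90) and Junb (-1.49) and the highest for Prkar1a (0.42), Actg1 (0.80) and Atp5f1a (0.52). Set 18 was the lowest for Zfand2b (-0.80), Adrb3 (-2.42), Cxcl12 (-0.68) and Col1a2 (-1.54) and the highest for Egfr (0.73). Set 16 was the highest for Flna (0.66) and Fn1 (1.01), set 13 for Ppp3ca (0.57), set 17 for Tspo (0.69) and set 12 for Hsd11b1 (1.60).

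The test of the difference between the AII + NA effect in EC and that in WT VSMC singled out Gdf6 (-1.69), Rgs3 (-0.96) and Rasl11b (-1.77). Cell type and batch cannot be told apart in this comparison.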

How the results depend on the processing

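The 0 DEG for AII + NA, for the average hormone effect and for the difference between both effects stayed 0 under every alternative run, including each set left out and sets 9, 11 and 13, or 9, 11, 13, 16 and 17, left out together, alternatives chosen after seeing the data. Without the count filter edgeR gave 36 genes with an FDR under 0.05 for AII + NA, and 0 met all criteria. Genes at an unadjusted p under 0.05 numbered 803 for AII + NA and 31 with no replicate block, 514 with the animal as block, 1282 without the count filter and 1217 without set 17. For AII + NA against HG + FFA the 65 DEG became 108 with DESeq2 alone, 218 without the log2FC threshold, 25 with a log2FC of at least 1, 1 without the pairing of sets, 28 with the animal as block, and 43 to 81 with each set left out, fewest without set 12. For EC minus WT VSMC the 3 genes became 34 with DESeq2 alone, 0 without the pairing, 0 without sets 9, 11 and 13, 0 without sets 9, 11, 13, 16 and 17, and 0 to 15 with each set left out. The 1 biomarker gene that met both the interval and the added effect limit became 3 with the normal quantile, 0 with the mean of log2 ratios, 0 without sets 9, 11, 13, 16 and 17 and 0 to 2 with each set left out. Agtr2 was not counted where its mean ratio was 0. The causes were not tested. Of 2374 recalculated log2FC of 140 named genes, 2371 moved by less than the SD between sets, and 129 had the opposite sign. Among the 3 exceptions were Agtr1a, with -0.18 without the pairing, and Mas1, with -2.31 without sets 9, 11, 13, 16 and 17. The low counts of the receptors limit what can be said of them.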
